A study of Homo sapiens with 4 samples.

Results

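The genes described here are 10 myosin heavy chains, chosen by symbol out of the 39323 genes listed in each table: MYH1, MYH2, MYH3, MYH4, MYH6, MYH7, MYH7B, MYH8, MYH9 and MYH10. RNA was sequenced from RD and JR1, which are established lines of fusion-negative rhabdomyosarcoma, a soft tissue tumour whose cells carry features of skeletal muscle precursors but do not complete differentiation. The lines were infected with lentiviral vectors that carried either a non-targeting short hairpin RNA (shSCR) or one against SKP2 (shSKP2.2), the substrate-recognition subunit of a ubiquitin ligase that marks cell cycle inhibitors for degradation. The question was how gene expression in each line differed once SKP2 had been depleted. There were 4 libraries: RD with shSCR, RD with shSKP2.2, JR1 with shSCR and JR1 with shSKP2.2. The shSCR libraries are labelled as wild type and the shSKP2.2 libraries as SKP2 knockdown, and both kinds passed through viral infection. With 1 library per line and condition and a single hairpin against SKP2, no difference could be set against a spread between replicates, no p-value is given, and an effect of the hairpin on other transcripts cannot be told apart from one of SKP2.

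A myosin heavy chain holds the motor that pulls on actin and the long tail that packs into the thick filament, and it works as a hexamer with its light chains. Developing muscle makes an embryonic heavy chain (MYH3) and a perinatal one (MYH8), which adult fast fibres replace with MYH2 (type IIa), MYH1 (type IIx) or MYH4 (type IIb, scarcely made in human muscle). Slow fibres and the heart use MYH7, the atria use MYH6, and MYH7B is a related slow-type gene. MYH9 and MYH10 encode the nonmuscle heavy chains IIA and IIB, which work in cortical tension, adhesion and cell division and are made in nearly every cell type.

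Levels are given as TPM, a transcript's share of all transcripts after correction for its length, which adds up to the same total in every library, so that levels of different genes can be set side by side. A change is log2 of the ratio of shSKP2.2 to shSCR after 1 TPM was added to both. A gene was called changed where that change was at least 1 in either direction, which is a 2-fold difference, and where its mean over the 4 libraries was at least 1 TPM; 12985 genes met this minimum. SKP2 itself had 92.8 TPM with shSCR and 7.40 TPM with shSKP2.2 in RD, and 46.5 and 2.72 TPM in JR1, in the direction of the labels in both lines. Of 8 markers of the skeletal muscle lineage, 7 met the minimum, and their sum lay between 413 and 797 TPM, while MYF5 was listed at 0 in all 4 libraries. Among those 7, PAX7 was called lower in both lines, with a change of -1.43 in each, and none was called higher. The levels of markers of other cells were 15.5 to 36.2 TPM for the sum of 6 smooth muscle genes, 44.7 to 61.5 TPM for 7 cardiac genes, with MYL7 at 0 everywhere, and 72.9 to 396 TPM for 5 fibroblast genes, most of it COL1A1, which had 307 and 77.0 TPM in RD with shSCR and shSKP2.2 and 387 and 65.8 TPM in JR1. Short structural RNAs took 58.6% of the TPM in RD with shSCR, 69.1% in RD with shSKP2.2, 66.5% in JR1 with shSCR and 72.1% in JR1 with shSKP2.2. These RNAs took a larger share in both knockdown libraries than in their controls, and the median change over all genes above the minimum was -0.27 in RD and -0.21 in JR1, so member changes are also given against that median or against other members of the same library. Where it matters, values are also given with these RNAs removed and the TPM rescaled. On that scale the median change over genes that then averaged at least 1 TPM was 0.12 in RD and 0.01 in JR1. It was not subtracted from the rescaled values.

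Of the 10 genes, 5 lie side by side on the minus strand of chromosome 17 (GRCh38) in the order MYH8 (10390322 to 10421950), MYH4 (10443058 to 10469559), MYH1 (10492307 to 10518719), MYH2 (10521148 to 10549658) and MYH3 (10628527 to 10678347). MYH10 is on the same chromosome at 8474212 to 8631369, outside this cluster. MYH6 (23381987 to 23408273) and MYH7 (23412740 to 23435677) are neighbours on chromosome 14, MYH7B is on chromosome 20 at 34955868 to 35002437, and MYH9 is on chromosome 22 at 36281280 to 36387967. RefSeq promoter sequences, from 250 bases before to 50 bases after the start site that RefSeq uses in GRCh38.p14, were matched for 7 of the 10 members and not for MYH3, MYH7 and MYH7B. That start site is the upstream end of the gene span given above for MYH8, MYH2, MYH4, MYH6 and MYH9, but lies inside the span for MYH1, by 177 bases, and for MYH10, by 644 bases. The promoters of the 4 cluster genes that were matched are shown because these neighbours share a sequence but differ in their RNA levels. All are written 5′ to 3′ on the minus strand, and the capitals mark the longest word common to all 4.
MYH8, chr17:10421901-10422200: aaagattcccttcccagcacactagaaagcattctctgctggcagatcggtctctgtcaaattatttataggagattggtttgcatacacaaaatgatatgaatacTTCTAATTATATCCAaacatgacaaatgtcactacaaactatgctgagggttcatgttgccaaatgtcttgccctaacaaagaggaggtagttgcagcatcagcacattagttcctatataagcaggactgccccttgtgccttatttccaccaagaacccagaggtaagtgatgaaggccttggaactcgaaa
MYH2, chr17:10549609-10549908: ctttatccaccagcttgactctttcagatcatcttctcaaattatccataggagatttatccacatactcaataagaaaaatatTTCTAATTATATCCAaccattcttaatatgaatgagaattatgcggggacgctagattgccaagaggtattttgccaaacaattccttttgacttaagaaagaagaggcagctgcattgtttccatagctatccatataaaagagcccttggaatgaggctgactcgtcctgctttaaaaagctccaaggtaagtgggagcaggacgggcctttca
MYH1, chr17:10518493-10518792: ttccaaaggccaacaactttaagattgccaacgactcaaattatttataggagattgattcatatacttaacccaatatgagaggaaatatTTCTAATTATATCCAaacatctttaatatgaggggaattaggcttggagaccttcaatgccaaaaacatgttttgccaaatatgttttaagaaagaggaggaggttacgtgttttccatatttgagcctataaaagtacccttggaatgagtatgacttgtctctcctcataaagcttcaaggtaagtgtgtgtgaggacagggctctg
MYH4, chr17:10469510-10469809: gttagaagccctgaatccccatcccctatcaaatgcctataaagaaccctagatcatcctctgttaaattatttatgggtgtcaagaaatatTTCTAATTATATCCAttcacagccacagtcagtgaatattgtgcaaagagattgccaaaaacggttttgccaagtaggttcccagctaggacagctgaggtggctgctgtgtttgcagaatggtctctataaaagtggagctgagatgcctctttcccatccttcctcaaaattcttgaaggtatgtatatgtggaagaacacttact

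The shared word, TTCTAATTATATCCA, begins 144 bases before the start site of the window for MYH8, 166 for MYH2, 159 for MYH1 and 158 for MYH4, so in MYH1 it lies within the gene span of the tables. Distances are counted from these start sites. It was found by comparing these 4 sequences, and on either strand it was present in 4 of 27305 RefSeq promoters of this length (0.0146%), which are the same 4 genes. The promoters of MYH6, MYH9 and MYH10 did not contain it. The E-box, CANNTG, is the word that MYOD1 and myogenin bind, and 68.9% of all promoters hold one on these terms. MYH8 has CAAATG at 122 and 84 bases before its start site, MYH4 has CAAATG at 221 and CAGCTG at 67, MYH2 has CAGCTG at 58, and MYH1 has none in this window. A match to the MEF2 consensus, TTATTTATAG, lies 189 bases before MYH8 and 210 before MYH1, and 3.09% of all promoters match that consensus on one strand or the other. The GC content was 36.3% to 41.3% in the 4 cluster promoters and 70.3% and 67.7% in those of MYH9 and MYH10, beside a median of 58.3% over all promoters. These matches describe the letters of the windows and were not read as binding sites.

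The embryonic gene MYH3 had the highest level of the 8 sarcomeric members in both control libraries. Its level was 1.97 TPM in RD with shSCR, 1.71 TPM in RD with shSKP2.2, 8.39 TPM in JR1 with shSCR and 19.9 TPM in JR1 with shSKP2.2. JR1 thus had more MYH3 than RD under both hairpins, 4.26 times as much with shSCR and 11.6 times with shSKP2.2. With shSKP2.2, MYH3 rose in JR1 to 2.37 times its control level, a change of 1.15, which ranked 171 of 12985 from the top. In RD the change was -0.13, which turned to 0.14 once the median of all genes was subtracted. It turned to 0.18 when the short structural RNAs were removed and the TPM rescaled, where the median in RD was itself 0.12.

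The perinatal gene MYH8 was the only member called higher in both lines. It was at 0.66 TPM in RD with shSCR, 3.56 TPM in RD with shSKP2.2, 0.38 TPM in JR1 with shSCR and 6.13 TPM in JR1 with shSKP2.2. Both control libraries were under 1 TPM and both knockdown libraries above 3 TPM, a ratio of 5.39 in RD and 16.1 in JR1. The changes of 1.46 and 2.37 ranked 64 in RD and 34 in JR1 from the top. Because 1 TPM is added before the ratio is taken, these changes understate the ratios of so low a gene.

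MYH2, the type IIa fast heavy chain, was at 0.41 TPM in RD with shSCR, 0.79 TPM in RD with shSKP2.2, 0.59 TPM in JR1 with shSCR and 5.31 TPM in JR1 with shSKP2.2. Only the JR1 knockdown library exceeded 1 TPM. MYH2 rose in JR1 to 9 times its control level, a change of 1.99 that ranked 51 from the top. In RD the ratio was 1.93 and the change 0.34, short of the 2-fold limit. The RD change was 0.61 against the median of all genes and 0.84 without the short structural RNAs. Both stayed under the limit, although the ratio without those RNAs, with no TPM added, was 2.58. The other adult fast genes were near 0 although they sit between MYH8 and MYH2 and share the promoter word: MYH1 (type IIx) was at 0 in both RD libraries and at 0.01 and 0.04 TPM in JR1 with shSCR and shSKP2.2, and MYH4 (type IIb) was at 0 in both controls and at 0.02 TPM in RD and 0.08 TPM in JR1 with shSKP2.2. Values this low are a few steps of the 2 decimals to which the tables are rounded, so no change is read from them.

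**Figure D1:**
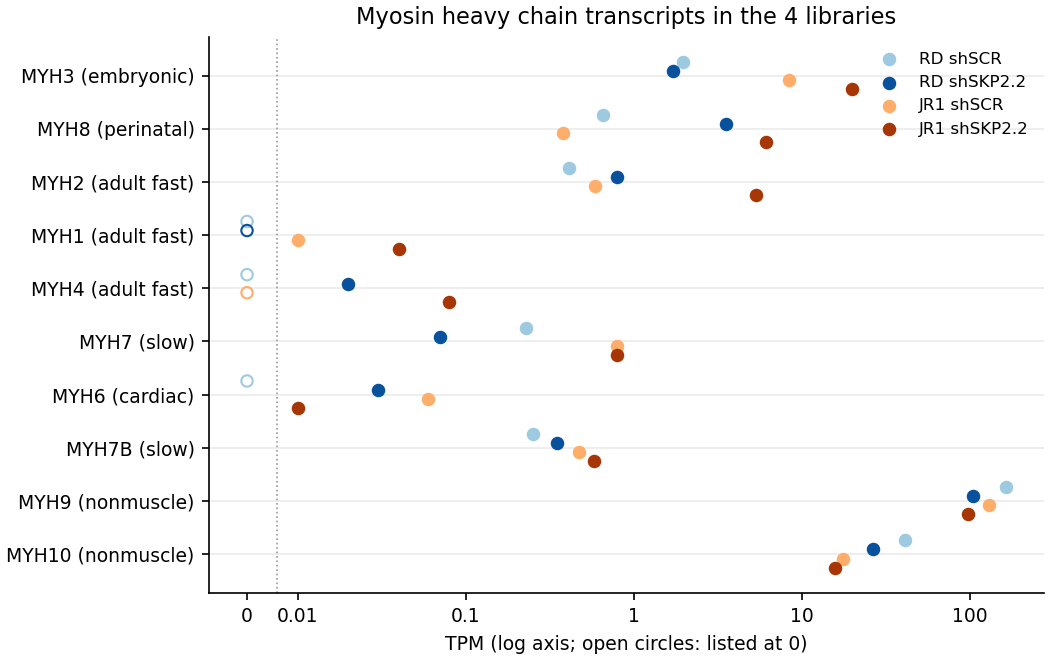
Level of each of the 10 myosin heavy chains (y axis) in TPM on a log x axis, with 1 point for each of the 4 libraries, open circles at the left for values listed at 0, and no error bars because there is 1 library per group. MYH9 and MYH10 lie above 15 TPM in all 4 libraries, MYH8 is separated by hairpin in both lines, and MYH1, MYH4 and MYH6 stay under 0.1 TPM.

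The slow and cardiac genes were low in all 4 libraries and none met the minimum. MYH7, the slow and ventricular heavy chain, was at 0.23 TPM in RD with shSCR, 0.07 TPM in RD with shSKP2.2 and 0.79 TPM in both JR1 libraries. MYH7B was at 0.25, 0.35, 0.47 and 0.58 TPM in the same order, and MYH6, the atrial heavy chain, at 0, 0.03, 0.06 and 0.01 TPM. JR1 had more MYH7 and MYH7B than RD under either hairpin, and all of these values stayed under 1 TPM. The 3 microRNA genes that lie in introns of these members, MIR208A in MYH6, MIR208B in MYH7 and MIR499A in MYH7B, were listed at 0 in all 4 libraries, in libraries not made to capture small RNAs.

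MYH9 had the highest level of the 10 members in every library. It was at 163 TPM in RD with shSCR, 104 TPM in RD with shSKP2.2, 130.5 TPM in JR1 with shSCR and 96.8 TPM in JR1 with shSKP2.2. In the RD control its level ranked 378 among the 21453 genes above 0. The knockdown libraries were at 63.4% of the control in RD and 74.2% in JR1, changes of -0.65 and -0.43 that did not reach the 2-fold limit and that came to -0.24 and -0.17 without the short structural RNAs. MYH10 was at 41.3 TPM in RD with shSCR, 26.6 TPM in RD with shSKP2.2, 17.7 TPM in JR1 with shSCR and 15.8 TPM in JR1 with shSKP2.2. RD had 2.34 times as much MYH10 as JR1 with shSCR, the opposite order to MYH3. Its changes were -0.62 in RD and -0.15 in JR1, and the JR1 value turned to 0.06 against the median of all genes and to 0.10 without the short structural RNAs. The ratio of MYH9 to MYH10, which no scaling touches, was 3.96 and 3.90 in RD with shSCR and shSKP2.2 and 7.39 and 6.14 in JR1.

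By these calls 1 member was higher in RD, MYH8, where 1.08% of all genes above the minimum were called higher, and 3 members were higher in JR1, MYH8, MYH2 and MYH3, where the share over all genes was 1.78%. No member was called lower in either line. The share called lower over all genes was 7.37% in RD and 9.05% in JR1, and 5 members are too few to differ from it. The 5 members above the minimum were MYH3, MYH8, MYH2, MYH9 and MYH10, and MYH8 and MYH2 reached it mainly through the knockdown libraries. The other 5 members, MYH1, MYH4, MYH6, MYH7 and MYH7B, could not be called. Of the 8 sarcomeric genes, shSKP2.2 had the higher value for 5 and the lower for 2 in RD, whatever the size of the difference. In JR1 it had the higher value for 6 and the lower for 1. Without the short structural RNAs these numbers were 6 and 1 in RD and 7 and 1 in JR1. These counts take in MYH1, MYH4 and MYH6, which were under 0.1 TPM as deposited and from which no direction is read. Over all genes above the minimum, with the TPM as deposited, 24.6% were higher and 75.0% lower in RD, and 30.9% and 68.9% in JR1. That minimum left out 5 of these 8 genes.

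**Figure D2:**
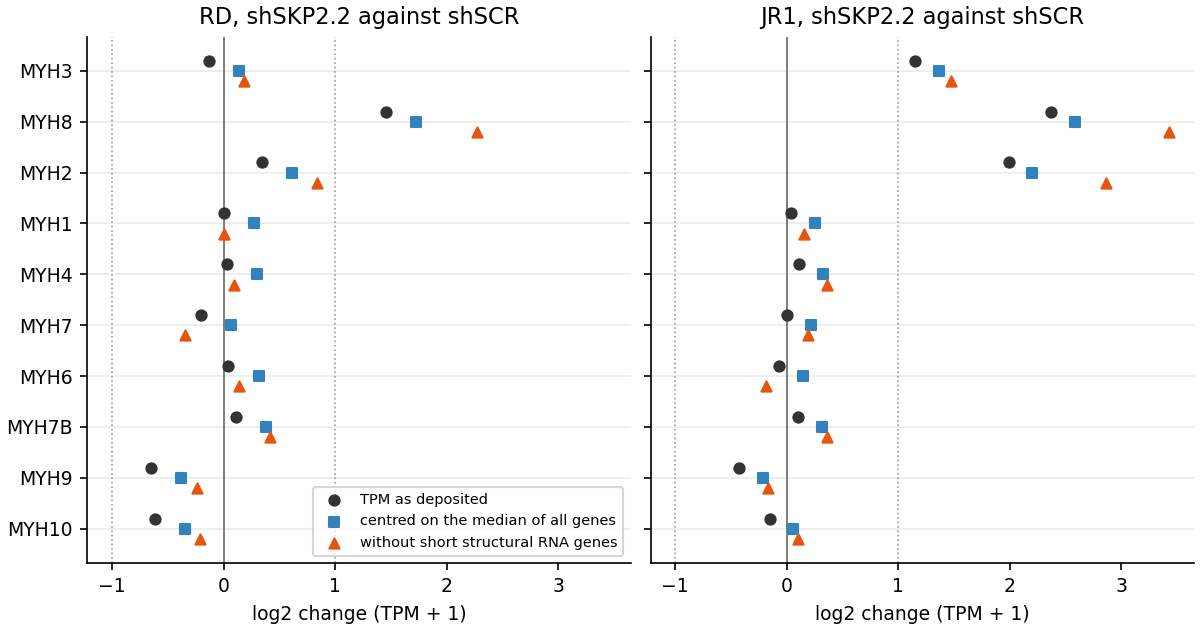
Change of each member with shSKP2.2 in RD (left) and JR1 (right), as log2 of the ratio of TPM + 1 on the x axis, from the TPM as deposited (circles), centred on the median of all genes (squares) and without short structural RNAs (triangles); dotted lines mark the 2-fold limit. With the TPM as deposited, MYH8 passes the limit in both lines (1.46 and 2.37), MYH2 and MYH3 only in JR1 (1.99 and 1.15), and MYH9 lies below 0 in both lines on all 3 scales.

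The make-up of the sarcomeric heavy chain RNA differed between lines and hairpins. The 8 genes summed to 3.52 TPM in RD with shSCR, 6.53 TPM in RD with shSKP2.2, 10.7 TPM in JR1 with shSCR and 32.8 TPM in JR1 with shSKP2.2, which is 1.86 times the control in RD and 3.07 times in JR1. MYH3 held 56.0% of the sum in the RD control and 26.2% in the RD knockdown, where MYH8 went from 18.8% to 54.5% and became the highest. In JR1, MYH3 stayed the highest with 78.5% and 60.6%, while MYH8 went from 3.55% to 18.7% and MYH2 from 5.52% to 16.2%. The ratio of MYH8 to MYH3 was 0.335 with shSCR and 2.08 with shSKP2.2 in RD, and 0.0453 and 0.308 in JR1, so that it was the higher with shSKP2.2 in either line. The embryonic and perinatal genes together remained above the adult fast ones in all libraries: 26.01 TPM against 5.43 TPM in JR1 with shSKP2.2, where the adult fast sum was highest, and 5.27 TPM against 0.81 TPM in RD with shSKP2.2. MYH7, MYH7B and MYH6 together amounted to 0.48 and 0.45 TPM in RD and 1.32 and 1.38 TPM in JR1. In bulk RNA, more cells making a transcript and more transcript in each cell cannot be told apart.

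**Figure D3:**
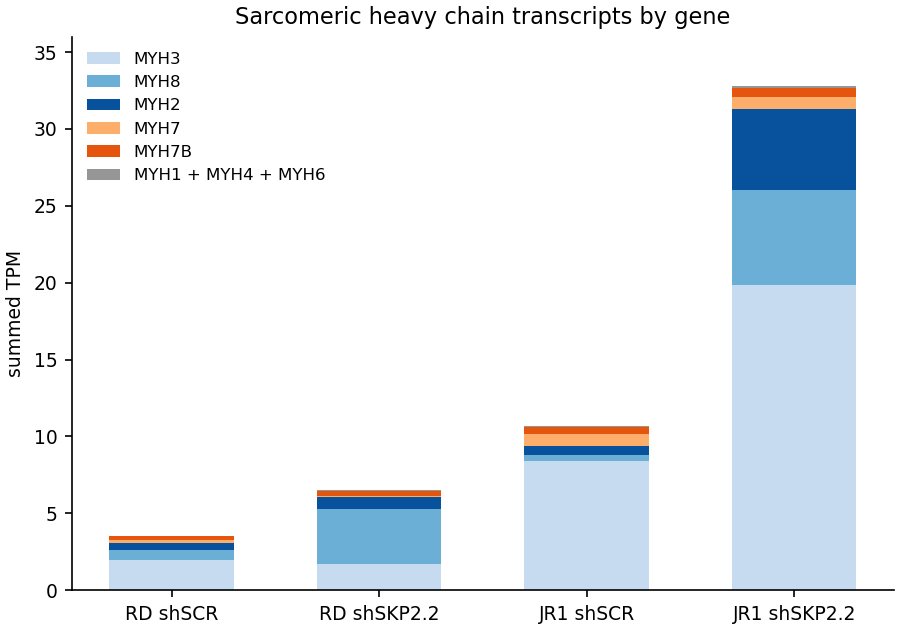
Summed TPM (y axis) of the 8 sarcomeric heavy chains, with 1 bar per library stacked by gene and no error bars. The bars reach 3.52, 6.53, 10.7 and 32.8 TPM; MYH8 fills 54.5% of the bar for RD with shSKP2.2, and MYH3 fills 60.6% of that for JR1 with shSKP2.2.

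Nonmuscle heavy chain RNA exceeded sarcomeric heavy chain RNA in all 4 libraries. MYH9 and MYH10 summed to 205 TPM and 130.2 TPM in RD with shSCR and shSKP2.2 and to 148 TPM and 113 TPM in JR1. The sarcomeric sum equalled 1.72% of this nonmuscle sum in the RD control, 5.02% in the RD knockdown, 7.22% in the JR1 control and 29.2% in the JR1 knockdown. These ratios do not depend on how the libraries were scaled, and they were 2.92 times higher with shSKP2.2 in RD and 4.04 times in JR1. They also take in the lower nonmuscle sum with shSKP2.2. Without the short structural RNAs that sum was at 85.2% of its control in RD and 91.3% in JR1. The sarcomeric sum alone was then 2.49 times its control in RD and 3.69 times in JR1. Taken gene by gene against the same nonmuscle sum, MYH8 was 8.48 times higher in RD and 21.2 times in JR1, MYH2 3.03 and 11.8 times, and MYH3 1.37 and 3.12 times. In JR1 with shSKP2.2 the level of MYH3 (19.9 TPM) stood above that of MYH10 (15.8 TPM); in the other 3 libraries both nonmuscle genes were above every sarcomeric one. Among the sarcomeric genes the order from the highest was MYH3, MYH8, MYH2, MYH7B, MYH7 in RD with shSCR and MYH8, MYH3, MYH2, MYH7B, MYH7 with shSKP2.2. In JR1 it was MYH3, MYH7, MYH2, MYH7B, MYH8 with shSCR and MYH3, MYH8, MYH2, MYH7, MYH7B with shSKP2.2. Without replicates it is not known which neighbours in these orders differ beyond their spread.

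**Figure D4:**
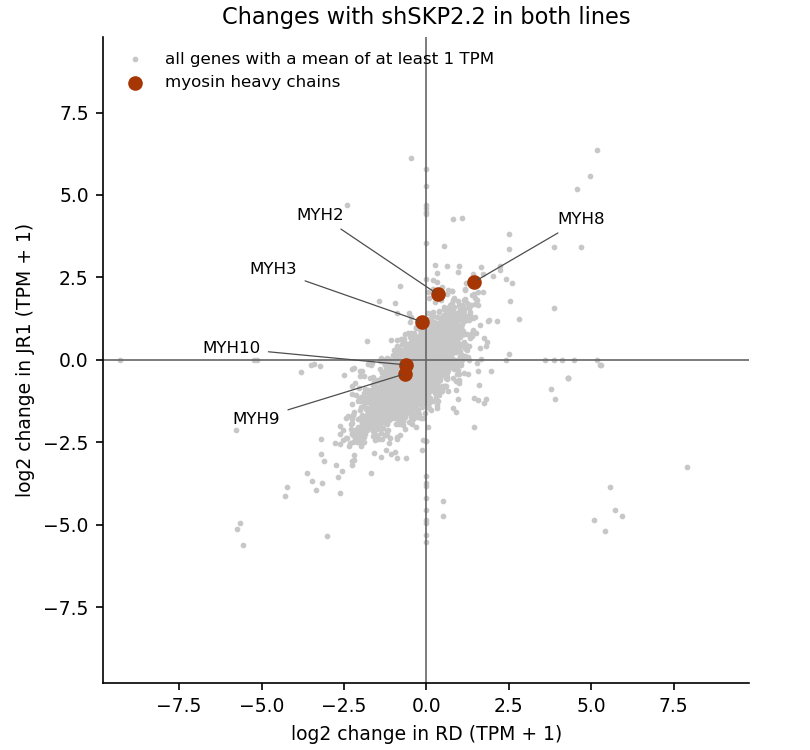
Change with shSKP2.2 in RD (x axis) against that in JR1 (y axis), log2 of the ratio of TPM + 1, for the 12985 genes above the minimum in grey and the 5 heavy chains among them in red. MYH8 lies up and to the right at 1.46 and 2.37. MYH2 and MYH3 lie high on the JR1 axis, at 0.34 and -0.13 on the RD axis. MYH9 and MYH10 lie within the main cloud.

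Sequence shared between these genes bears on how reads are divided between them. In the GENCODE 44 canonical transcripts, the coding sequences of MYH8, MYH2, MYH1 and MYH4 were 86.1% to 91.1% identical to each other and 79.2% to 79.9% identical to that of MYH3, and sarcomeric and nonmuscle genes were 50.8% to 57.0% identical. Of all windows of 50 bases, the share that also occurs in another heavy chain was 3.93% for MYH3, 8.18% for MYH8, 17.9% for MYH2, 20.8% for MYH1, 13.6% for MYH4, 14.6% for MYH7 and 14.9% for MYH6, and at most 0.621% for MYH7B, MYH9 and MYH10. With windows of 150 bases it was 0.730% for MYH8, 2.02% for MYH2, 3.25% for MYH1, 1.31% for MYH4, 4.19% for MYH7, 4.25% for MYH6 and 0 for MYH3. Small values of MYH1, MYH4 and MYH6 beside a higher neighbour are therefore uncertain. A long antisense gene, MYHAS, runs on the opposite strand past MYH8, MYH4, MYH1 and MYH2. It was at 0.05 and 0.30 TPM in RD with shSCR and shSKP2.2 and at 0.06 and 1.15 TPM in JR1, and 30 exonic bases of it overlap MYH8 in GENCODE 44. The library kit keeps strand, but the strand setting of the read assignment is not given in the sources used here.

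Within 500 kb of the chromosome 17 cluster the tables list 13 other genes, of which 4 exceeded 1 TPM in any library. GAS7, a cytoskeletal adaptor gene, was at 2.43 and 0.55 TPM in RD with shSCR and shSKP2.2 and at 0.35 and 0.17 TPM in JR1, changes of -1.15 and -0.21 with a mean under the minimum. SCO1, a copper chaperone of cytochrome oxidase whose span overlaps that of MYH3 in the tables, had changes of -0.22 and -0.21 from 5.12 and 5.15 TPM. ADPRM had changes of -0.28 and -0.05, and the remaining gene above 1 TPM was MYHAS. SCO1 and ADPRM, the neighbours of MYH3, thus had JR1 changes of -0.21 and -0.05 where MYH3 had 1.15. Around MYH6 and MYH7, 22 of 48 other genes exceeded 1 TPM; HAUS4, an augmin subunit gene of the mitotic spindle, was lower in RD with a change of -1.21, or -0.94 against the median of all genes, and none of the others passed the limit in either line with the TPM as deposited.

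**Figure D5:**
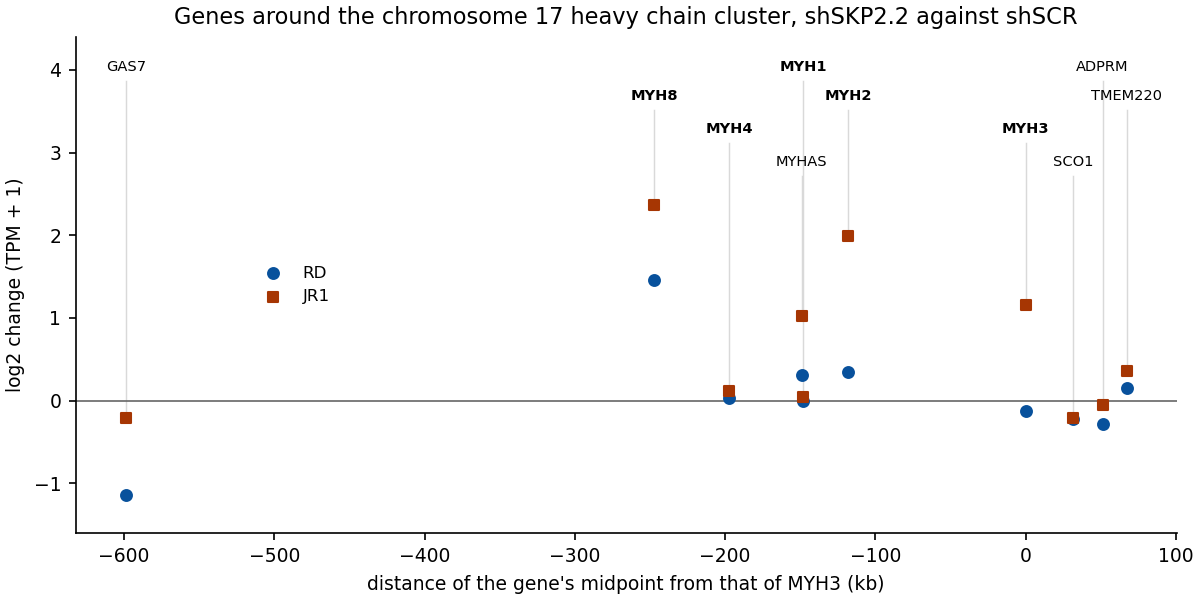
Change with shSKP2.2 (log2 of the ratio of TPM + 1) of genes around the chromosome 17 cluster, against the distance of each gene's midpoint from that of MYH3 in kb, for RD (circles) and JR1 (squares). Shown are the 5 members and other genes above 0.5 TPM in any library; MYH8, MYH2 and MYH3 stand above 1 in JR1, MYH1 and MYH4 between them are near 0, and MYHAS (under the 1 TPM minimum) has 1.02 in JR1.

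Other heavy chain genes were mostly low. MYH14, the nonmuscle heavy chain IIC, was at 5.62 and 2.74 TPM in RD with shSCR and shSKP2.2 and at 4.0 and 1.12 TPM in JR1, and fell past the limit in JR1 with a change of -1.24 beside -0.82 in RD. MYH11, the smooth muscle heavy chain, reached at most 0.11 TPM, MYH13, the extraocular one, 0.05 TPM, MYH15 0.32 TPM and MYH16 0.02 TPM. The smooth muscle gene was therefore near 0 although TAGLN, an actin-binding marker of smooth muscle and other cells, was at 7.24 to 18.5 TPM.

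Of 13 light chain genes measured, 9 met the minimum and 2 rose in each line, MYL1 and MYLPF in both, with none lower. MYL1, the fast skeletal essential light chain, was at 7.10 and 119 TPM in RD with shSCR and shSKP2.2 and at 34.4 and 374 TPM in JR1, changes of 3.89 and 3.41. MYLPF, the fast skeletal regulatory light chain, was at 15.6 and 44.02 TPM in RD and at 88.7 and 355 TPM in JR1. The fast light chains were thus above the fast and developmental heavy chains in level in every library. MYL6B, an essential light chain of nonmuscle and slow myosins, had the lowest change, -0.88 in RD and -0.83 in JR1, and MYL2 and MYL7, the ventricular and atrial regulatory light chains, were listed at 0 in all 4 libraries. The median over the 9 genes was -0.03 in RD and 0.00 in JR1, beside -0.27 and -0.21 over all genes.

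Of 10 genes for proteins that bind or border the thick filament, 8 met the minimum. MYOM1, an M-band protein, and TTN, the giant spring that spans from Z-disc to M-band, rose in both lines, and MYBPC1 and MYBPH, which bind the myosin filament, rose in JR1. TTN was at 0.88 and 10.4 TPM in RD with shSCR and shSKP2.2 and at 2.59 and 17.1 TPM in JR1, MYOM1 at 0.32 and 6.43 TPM and at 1.21 and 21.9 TPM. MYBPC1, the slow-type binding protein, was at 0 and 0.46 TPM in RD and at 0.01 and 10.0 TPM in JR1, a change of 3.45. OBSL1, a cytoskeletal linker of muscle and other cells, fell in both lines, with changes of -1.94 and -1.82. The list's median change was 0.50 in RD and 1.11 in JR1.

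Of 8 genes for folding and assembly of myosin, all met the minimum, and 2 rose in both lines, the muscle-specific ones UNC45B and SMYD1. UNC45B, the chaperone of the myosin motor, was at 0.48 and 3.86 TPM in RD with shSCR and shSKP2.2 and at 4.05 and 20.0 TPM in JR1, changes of 1.72 and 2.05. SMYD1, a methyltransferase needed for thick filament assembly, was at 1.55 and 11.0 TPM in RD and at 4.55 and 38.5 TPM in JR1, changes of 2.23 and 2.83. UNC45A, the chaperone for nonmuscle myosin, had the lowest change in JR1 (-0.69), and PTGES3, an HSP90 cochaperone, in RD (-0.48). The list's median was -0.26 in RD and -0.16 in JR1, close to that of all genes. Among 9 light chain kinase and phosphatase genes, 6 met the minimum, and PPP1R12B, a myosin phosphatase targeting subunit, rose in JR1 with a change of 1.13 beside 0.58 in RD, where it was 1.05 without the short structural RNAs. The lowest were ROCK2, a kinase that acts on nonmuscle myosin, with -0.81 in RD, and PPP1CB, the catalytic subunit, with -0.50 in JR1, and the median over the 6 genes came to -0.32 in RD, -0.22 in JR1.

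Of 15 transcription factors of muscle, 12 met the minimum. MEF2C and MEF2A rose in JR1, and NFIX, a factor of fetal muscle, had changes of -1.03 and -1.09, past the limit, but of -0.76 and -0.87 against the median of all genes and -0.66 and -0.88 without the short structural RNAs, where both calls were lost. MEF2C was at 0.98 and 2.05 TPM in RD with shSCR and shSKP2.2 and at 1.76 and 18.7 TPM in JR1, changes of 0.62 and 2.84, and the RD change was 1.18 without the short structural RNAs. JR1 with shSKP2.2 was again the highest library. MYOG, which encodes myogenin, was at 31.6 and 58.4 TPM in RD and at 54.0 and 107 TPM in JR1, changes of 0.87 and 0.98 that were under the limit with the TPM as deposited and past it against the median (1.14 and 1.19) and without the short structural RNAs (1.3 and 1.25). MYOD1 was at 87.0 and 93.8 TPM in RD and at 101 and 131 TPM in JR1, changes of 0.11 and 0.38. The list's median was 0.06 in RD and 0.43 in JR1. The relation of these factors to the heavy chains was not tested.

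The genes whose pattern over the 4 libraries was most like that of MYH3 and MYH8 were ranked by the root mean square difference of log2(TPM + 1) after centring each gene. For MYH3 they were LINC02154 (0.159), VAV3 (0.187), ZNF385B (0.233), IRX6 (0.293) and ALK (0.321). LINC02154 was at 1.25, 1.32, 7.94 and 20.2 TPM in RD with shSCR, RD with shSKP2.2, JR1 with shSCR and JR1 with shSKP2.2, close to MYH3 in level as well. For MYH8 they were CHSY3 (0.246), KLHL41 (0.249), LOC101928156 (0.255), ONECUT2 (0.281) and HRC (0.284). KLHL41, a kelch protein of the sarcomere, was at 81.1, 243, 106 and 448 TPM in that order, and HRC, a calcium-binding protein of the sarcoplasmic reticulum, at 3.22, 8.44, 3.84 and 20.5 TPM. Over 4 libraries such likeness carries little information, and it is given as a description.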

How the data were processed

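RNA from 4 libraries, RD and JR1 with shSCR or shSKP2.2, was column-purified and made into directional poly-A libraries. The submitters' processing notes name GRCh38 as the build and STAR 2.7.9a and RSEM 1.3.2 as the tools by which the authors obtained their TPM. The deposited TPM values have 2 decimals and no read counts, so depth is unknown and no interval is given. Groups came from the sample titles, the hairpin's number from the series description. Each shSKP2.2 library was compared with the shSCR library of its line as log2((TPM + 1)/(TPM + 1)), for genes that averaged 1 TPM or more, with a 2-fold limit and no test. Named were all members, SKP2, other heavy chains, the extremes of each list with preset genes, the genes most like MYH3 and MYH8 and neighbours above 1 TPM. MYLPF, MYOM1, MYBPH, OBSL1 and the other list genes past the limit on any scaling, PAX7, TAGLN and COL1A1 were named after their values were seen. The members and lists were chosen with earlier results of these data known. Alternatives were a pseudocount of 0.1 TPM, centring on the median, removal of 1073 short structural RNA genes with rescaling, no minimum or one of 5 TPM, and a 1.5-fold limit. The calculation was tested on simulated data, with rises planted only in genes of at least 5 TPM in the RD control. That test does not cover genes as low as MYH8 and MYH2. Python 3.11.15, numpy 2.4.6, pandas 2.3.3 and matplotlib 3.10.9 were used. Sequences came from RefSeq (GRCh38.p14) and GENCODE 44.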

Additional observations from a re-analysis of the deposited data

Results flagged for a closer look

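The change of MYH3 with shSKP2.2 was positive in JR1 (1.15) and negative in RD (-0.13), which leaves a difference of 1.29 on the log2 scale between the lines. With 1 library per group this difference was not tested. The sign in RD depends on the scaling, since it was 0.14 against the median of all genes and 0.18 without the short structural RNAs, while JR1 stayed above 1 in both.

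MYH6 was also on opposite sides of 0, with a difference of -0.11 (JR1 less RD) that was not tested. It rests on values of 0 to 0.06 TPM, under the minimum of 1 TPM.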

How the results depend on the processing

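No call and no sign of a called member (MYH8 in RD; MYH8, MYH2 and MYH3 in JR1) changed with 0.1 TPM added, centring on the median or removal of the short structural RNAs. Sign changes among the other members came with centring, for MYH3 (0.14) and MYH7 (0.07) in RD and MYH6 (0.14) and MYH10 (0.06) in JR1, and without structural RNAs, for MYH3 in RD (0.18) and MYH10 in JR1 (0.10). Genes called higher over the whole table numbered 279 in RD and 378 in JR1 with 0.1 TPM added, against 140 and 231. Centred, 272 were higher and 458 lower in RD, and 388 and 710 in JR1. Without structural RNAs, 670 were higher and 526 lower in RD, against 140 and 957, and 747 and 1140 in JR1, against 231 and 1175. The sarcomeric sum then became 8.50 and 21.1 TPM in RD and 31.9 and 118 TPM in JR1, with shSCR and shSKP2.2. With a minimum of 5 TPM, 0 members in RD and 1 in JR1 were called higher, since MYH8 and MYH2 dropped out, with 87 and 143 genes higher. At 1.5-fold, 416 genes were higher and 3011 lower in RD, 689 and 3041 in JR1, and 2 members, MYH9 and MYH10, were lower in RD.

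Centring and the removal of structural RNAs were also tried on the gene lists after the data were seen. Against the median, MYL4 (1.06) and MYOM2 (1.06) in RD and MYOM2 (1.05) and EYA1 (1.10) in JR1 passed the limit, as did MYOG in both lines, and NFIX no longer did. Without structural RNAs the same held, and MYBPC1 (1.32), PPP1R12B (1.05) and MEF2C (1.18) in RD and MYOM3 (1.18) in JR1 passed it as well.

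The comparisons were made within each line, with 1 library on each side and no p-value, and a fit of both lines together with line as a block was not run. Leaving out a library removes its comparison. TPM keep no depth, so counting error is unknown for every member. Read sharing between the fast genes cannot be checked from TPM.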
